A study of Mus musculus with 6 samples.

Results

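The genes described here carry glucose into the cell, turn it into lactate, or control that pathway: the glucose transporters Slc2a1 and Slc2a3, the enzymes Hk1, Hk2, Pfkp, Aldoa, Aldoc, Pkm and Ldha, and the transcription factor gene Hif1a. These 10 genes were chosen by name from the 18122 genes of the deposited table, all 10 were present, and all 10 passed the filter on low counts. RNA came from group 2 innate lymphoid cells (ILC2s), lymphocytes without antigen receptors that release type 2 cytokines, which were sorted from mouse lung and cultured. The 3 ICOS KO libraries carry the genotype C.129S4-Icostm1Shr/J, whose targeted Icos allele affects the inducible co-stimulator receptor, and the 3 wild-type (WT) libraries carry the genotype BALB/C BYJ. Because these genotypes are named as separate strains, effects of strain DNA and of Icos loss cannot be told apart. The labels give no age, sex, culture time or culture medium. They also leave unsaid whether each library had its own mouse or culture, so the p-values rest on a spread between libraries that may be technical.

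Glycolysis splits glucose into pyruvate in the cytosol and yields ATP without oxygen. Glucose enters through GLUT transporters, hexokinase traps it by phosphorylation, phosphofructokinase commits it to the pathway, aldolase splits the sugar, pyruvate kinase makes pyruvate, and lactate dehydrogenase turns pyruvate into lactate so that the upstream steps can go on. Several steps have more than one gene, and proliferating or activated lymphocytes are known for high levels of the whole set. HIF-1, a pair of HIF-1alpha (Hif1a) and its partner ARNT, is the factor that raises many of these genes when oxygen is low; HIF-1alpha is controlled mainly by protein breakdown, so RNA levels of Hif1a do not show its activity.

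Library totals ran from 13738062 to 15543034 estimated counts in ICOS KO and from 14976130 to 18736474 in WT, made from 10 pg of RNA each. Icos was lower in every ICOS KO library than in any WT library, at 157 ± 15.6 CPM in ICOS KO and 466 ± 33.9 CPM in WT (SD, n = 3 each; CPM are counts scaled to 1000000 per library, with TMM factors). All 15 ILC2 markers were detected, with a summed level of 12326 to 13038 CPM in ICOS KO and 12007 to 13232 CPM in WT, of which Il5 alone held 6049 ± 309 CPM in ICOS KO and 6459.6 ± 533 CPM in WT. Behind these like sums, 6 of the 15 markers were called by edgeR, 4 higher (Areg, Klrg1, Arg1 and Il1rl1) and 2 lower (Icos and Rora), against 1.29% higher and 2.01% lower over all 13691 genes tested, and 11 of the 15 did not overlap between the genotypes, against 24.4%. Areg stood at 257 ± 14.8 CPM in ICOS KO and 96.7 ± 10.6 CPM in WT, Klrg1 at 557 ± 49.4 CPM in ICOS KO and 240.3 ± 19.4 CPM in WT, Arg1 at 628 ± 14.4 CPM in ICOS KO and 380.2 ± 17.8 CPM in WT, and Rora at 152 ± 5.997 CPM in ICOS KO and 211 ± 7.75 CPM in WT. Sums of neutrophil markers and of epithelial and endothelial markers overlapped between the genotypes, and those of the other cell types below did not. The 9 of 10 mast cell and basophil markers in the table summed to 35.6 to 39.01 CPM in ICOS KO and 113 to 125 CPM in WT. The 8 macrophage and monocyte markers summed to 188 to 239 CPM in ICOS KO and 283 to 344 CPM in WT. Ccr2 made up most of this sum, at 157 ± 11.04 CPM in ICOS KO and 213 ± 14.8 CPM in WT. All 6 tested genes of that list had negative fold changes. Of these, 2 were called lower, Ccr2 (adjusted p = 0.0319 by edgeR) and Csf1r (0.013). The 9 T cell markers, mostly Trbc1, Trbc2 and Cd3g, summed to 367 to 469 CPM in ICOS KO and 245 to 299.9 CPM in WT. The list did not share a direction: of its 6 tested genes Trbc1 and Trbc2 were called higher, while Cd3e was called lower, at 2.298 ± 1.34 CPM in ICOS KO and 8.87 ± 1.41 CPM in WT (adjusted p = 0.0281 by edgeR), and 3 had negative fold changes. No marker of these lists was at 0 in all libraries. Sums for 4 B cell markers were 29.7 to 45.8 CPM in ICOS KO and 25.2 to 26.3 CPM in WT, for 7 neutrophil markers 2.89 to 6.39 CPM in ICOS KO and 5.97 to 42.1 CPM in WT, for 5 epithelial and endothelial markers 143 to 265 CPM in ICOS KO and 143 to 240.4 CPM in WT, and for 3 erythroid markers 6.59 to 14.1 CPM in ICOS KO and 4.26 to 4.73 CPM in WT. The nuclear RNA Malat1 stood at 811 to 1687 CPM in ICOS KO and 610 to 996 CPM in WT, and mitochondrial genes held 0.329% to 0.616% of counts in ICOS KO and 0.263% to 0.422% in WT. The part of these shifts in the results below was not tested, and in bulk RNA a change in the share of cells that express a gene and a change in RNA per cell cannot be told apart.

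Among the 10 genes, Hk2 fell and Aldoc rose in ICOS KO, and the other 8 did not pass the test. edgeR's quasi-likelihood test called 2 of the 10 genes at an adjusted p of 0.05, against 3.29% of the 13691 genes tested (1.29% higher and 2.01% lower). Of the calls over all genes 39.02% were higher in ICOS KO, a share that was 28.2% with library totals alone and 58.2% with the trend of each library with length and GC content removed. The log2 fold changes of ICOS KO over WT ran from -1.002 to 0.89, with 5 positive and 5 negative and a median of -0.0043, and the median over all genes tested was -0.0035. In 4 of the 10 genes no ICOS KO library overlapped the WT libraries (3 higher and 1 lower), where 24.4% of all genes tested showed no overlap (11.9% higher and 12.5% lower). The plot of CPM by library shows every value.

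**Figure D1:**
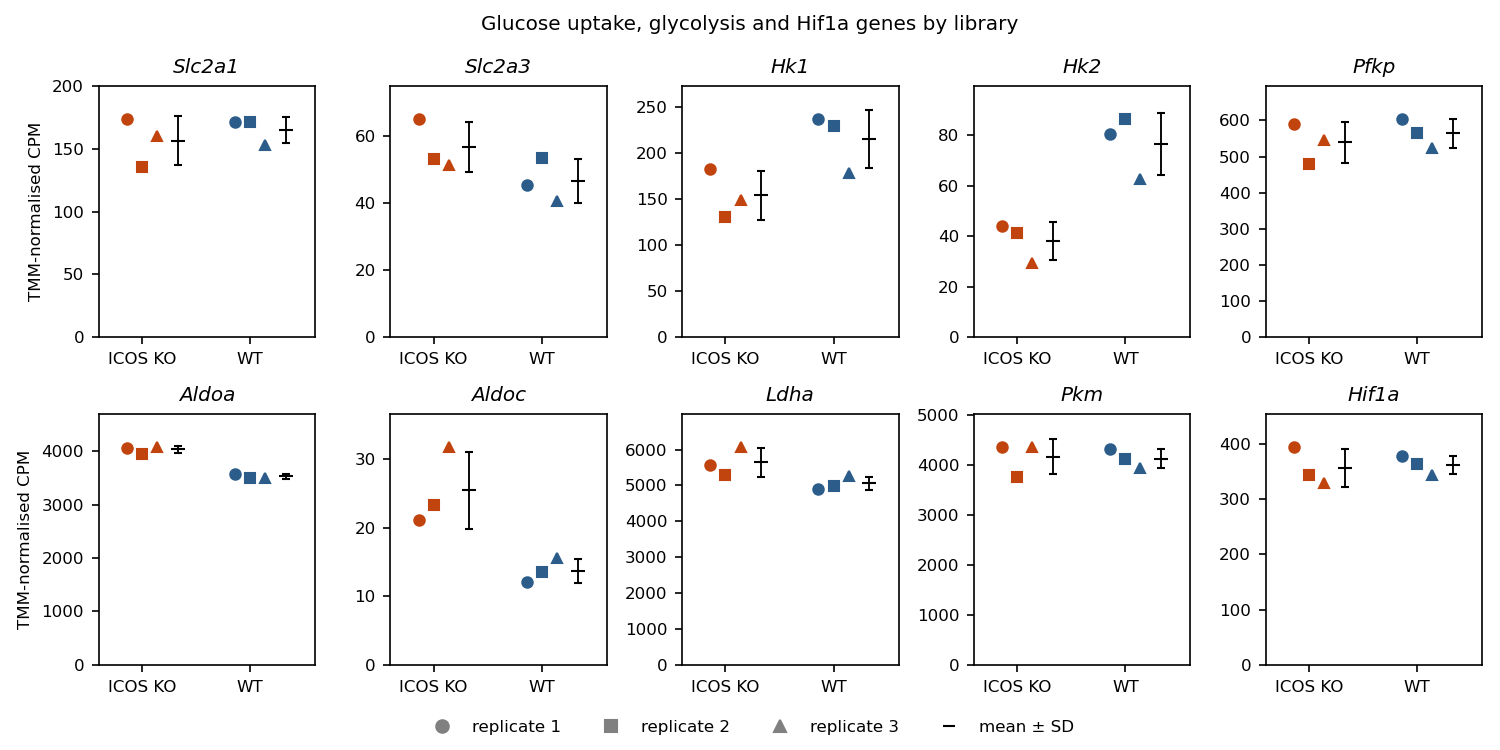
Level of the 10 genes in each library, in TMM-normalised CPM on linear axes from 0, with 3 ICOS KO libraries on the left and 3 WT libraries on the right of each panel; black bars are the mean ± SD. Hk2 lies between 29.5 and 43.9 CPM in ICOS KO, under all WT libraries (62.6 to 86.5 CPM), and Aldoc lies between 21.2 and 31.8 CPM in ICOS KO, over all WT libraries (12.1 to 15.5 CPM).

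Promoter letters of the genes were read because HIF binds the core ACGTG or GCGTG and Myc the E-box CACGTG, which contains ACGTG on both strands. RefSeq start sites (GRCm38.p6, the reference strain, not those of the mice used) were found for 9 of the 10 genes, with 15 start sites, and the 250 bases before each were searched on both strands. ACGTG or GCGTG stood in 12 of the 15 windows, against 38.6% of all 32851 windows of that length. Both cores hold the letters CG, and GC content ran from 49.6% to 69.6% over the 15 windows. No share matched for GC content was computed, so these shares do not show an excess of HIF sites. The windows of the last 2 start sites of Aldoa overlap and share their 1 match, so these are not separate sites. The 3 windows without the core were those of the first start sites of Hk1, Aldoa and Pkm. Each of the 9 genes had at least 1 window with the core, but genes with several start sites had several chances of a match. CACGTG stood in 2 of the 15 windows, those of Ldha and Hif1a, against 6.02% of all windows. The gene that fell and the one that rose, each with the other member of its pair, and Ldha, the most abundant of the 10, are shown 5′ to 3′ on the strand of the gene, with matches of either strand in capitals. For Hk1 and Aldoa the window printed is one that holds the core, chosen for that, and their first start sites have none.
Hk2 (chr6:82774455-82774704, minus strand, 2 core matches): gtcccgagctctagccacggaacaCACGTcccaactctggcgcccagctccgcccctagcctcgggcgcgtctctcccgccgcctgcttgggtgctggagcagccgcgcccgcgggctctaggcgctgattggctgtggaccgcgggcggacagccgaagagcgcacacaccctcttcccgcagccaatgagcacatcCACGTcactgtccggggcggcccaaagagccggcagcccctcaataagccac
Hk1, second start site (chr10:62340422-62340671, minus strand, 3 core matches, of which a pair overlaps): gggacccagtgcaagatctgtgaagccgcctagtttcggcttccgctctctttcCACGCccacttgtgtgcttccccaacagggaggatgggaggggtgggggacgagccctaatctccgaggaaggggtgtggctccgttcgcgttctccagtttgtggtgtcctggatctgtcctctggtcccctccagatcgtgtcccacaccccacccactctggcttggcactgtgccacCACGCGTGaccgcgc
Aldoc, first start site (chr11:78322823-78323072, plus strand, 1 core match): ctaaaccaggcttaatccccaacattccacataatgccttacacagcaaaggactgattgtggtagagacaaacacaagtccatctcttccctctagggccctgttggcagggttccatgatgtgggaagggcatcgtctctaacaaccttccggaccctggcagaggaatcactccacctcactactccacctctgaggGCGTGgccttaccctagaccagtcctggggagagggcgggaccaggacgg
Aldoa, second start site (chr7:126799255-126799504, minus strand, 1 core match): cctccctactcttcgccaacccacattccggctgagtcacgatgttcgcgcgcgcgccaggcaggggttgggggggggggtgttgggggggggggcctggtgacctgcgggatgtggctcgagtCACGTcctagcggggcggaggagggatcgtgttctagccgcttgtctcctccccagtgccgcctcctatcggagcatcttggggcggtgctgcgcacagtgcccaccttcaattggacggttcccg
Ldha, first start site (chr7:46845554-46845803, plus strand, 5 core matches, of which 4 lie in 2 E-boxes): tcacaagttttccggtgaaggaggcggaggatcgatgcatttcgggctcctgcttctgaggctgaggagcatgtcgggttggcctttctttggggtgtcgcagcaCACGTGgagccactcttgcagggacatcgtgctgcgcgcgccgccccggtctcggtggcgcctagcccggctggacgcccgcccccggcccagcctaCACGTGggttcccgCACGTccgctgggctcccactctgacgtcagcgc
The core stood before Hk2, which fell, before Aldoc, which rose, and before Ldha, which was not called. A match of letters is not a bound site, and gene counts do not show which start site the cells used.

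Mean levels per kilobase of transcript spanned 6.93 to 3111 CPM per kb over the 10 genes in ICOS KO and 4.93 to 2788 in WT. In ICOS KO libraries Ldha led with 3111 ± 224 CPM per kb, followed by Aldoa with 2603 ± 44.1 and Pkm with 1712 ± 142 (SD, n = 3). In WT libraries they followed in that order too, with 2788 ± 103, 2277 ± 25.7 and 1696 ± 77.6 CPM per kb, and no library of one gene overlapped those of the next. Among 13388 tested genes with a known transcript length, 10 stood above Ldha in ICOS KO and 9 in WT. Together Ldha, Aldoa and Pkm took 1.39%, 1.24% and 1.43% of all counts in the ICOS KO libraries and 1.32%, 1.28% and 1.29% in the WT libraries. Pfkp, the platelet-type phosphofructokinase, came next with 130.1 ± 13.4 CPM per kb in ICOS KO and 136 ± 9.67 in WT, and then Hif1a with 75.3 ± 7.31 in ICOS KO and 76.5 ± 3.55 in WT. The levels of Slc2a1 (48.1 ± 5.94 CPM per kb in ICOS KO, 50.7 ± 3.25 in WT) and Hk1 (36.0 ± 6.13 in ICOS KO, 50.3 ± 7.41 in WT) overlapped between libraries within each genotype. The lowest levels were those of Hk2, Slc2a3 and Aldoc, and their order differed between the genotypes. In ICOS KO it was Slc2a3 (14.3 ± 1.88 CPM per kb), Aldoc (9.13 ± 2.03) and Hk2 (6.93 ± 1.38), with Aldoc and Hk2 overlapping. In WT it was Hk2 (13.9 ± 2.25 CPM per kb), Slc2a3 (11.7 ± 1.67) and Aldoc (4.93 ± 0.626), with Hk2 and Slc2a3 overlapping. Lengths are those of the longest coding transcript; with the union of all exons as length, Pfkp moved behind Hif1a and Slc2a1 in both genotypes.

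**Figure D2:**
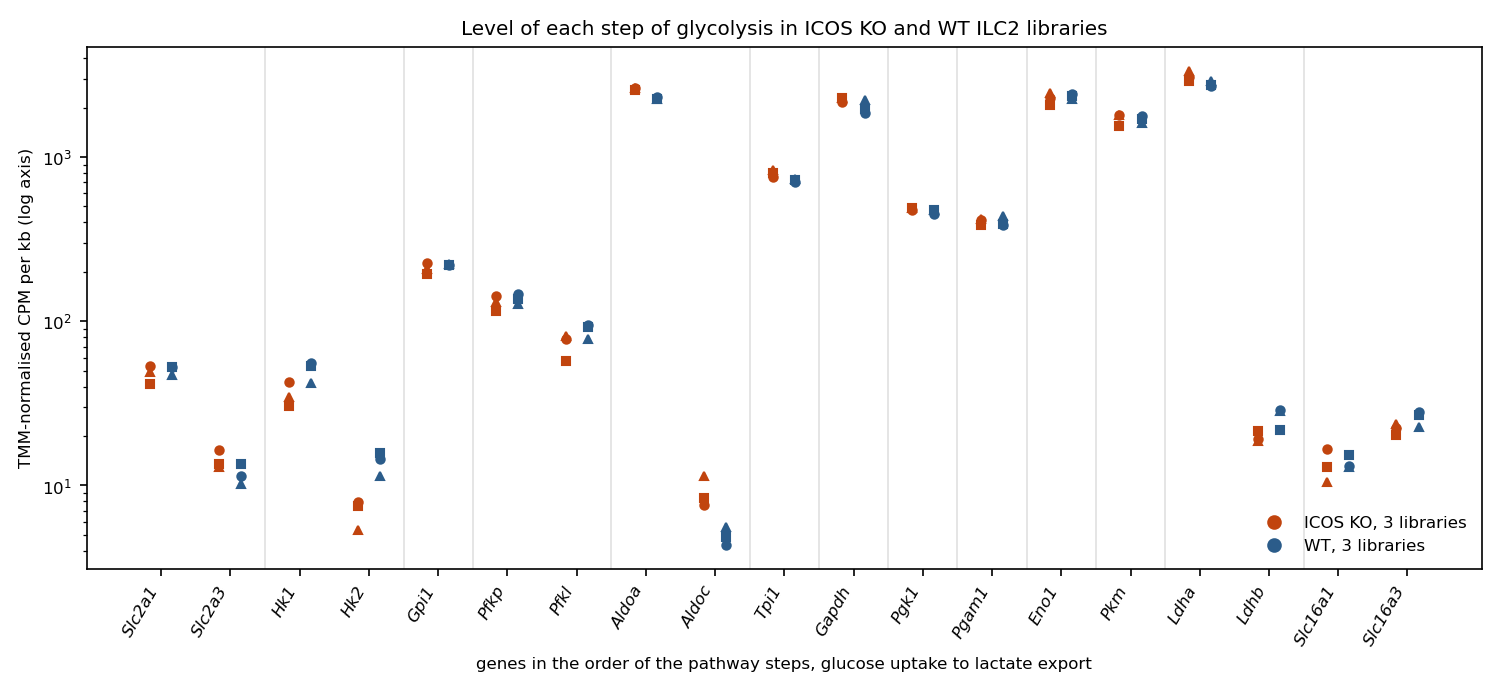
Level per kilobase of transcript (log axis) of the genes of each glycolytic step, in pathway order from glucose uptake to lactate export, for 3 ICOS KO libraries (left of each tick) and 3 WT libraries (right). Aldoa, Gapdh, Eno1, Pkm and Ldha are the 5 highest genes in every library, with Pkm at 1548 CPM per kb at its lowest, while Hk1, Hk2, Slc2a1 and Slc2a3 reach at most 55.5 CPM per kb.

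Glucose transporters came first in the pathway and neither was called. Slc2a1 encodes GLUT1, the basal transporter of most dividing cells (chromosome 4, 119108711 to 119137983, GRCm38). It stood at 174, 136 and 160.3 CPM in the ICOS KO libraries and at 171, 172 and 153 CPM in the WT libraries. ICOS KO replicate 2 was the lowest of the 6, replicate 1 the highest, and the groups overlapped. The log2 fold change was -0.08 ± 0.11 (SE; adjusted p = 0.737 by edgeR), with a 95% interval of -0.32 to 0.17, and 0.10 with the length and GC trend removed. Slc2a3 encodes GLUT3, a transporter with high affinity for glucose (chromosome 6, 122727809 to 122801640). It stood at 65.2, 53.3 and 51.5 CPM in ICOS KO and at 45.4, 53.6 and 40.5 CPM in WT. WT replicate 2 lay within the ICOS KO range. The log2 fold change was 0.28 ± 0.14 (adjusted p = 0.287 by edgeR), and it was 0.47 with an adjusted p of 0.0497 when the length and GC trend was taken out. Within each library Slc2a3 was set against Slc2a1, and the log2 ratio of their CPM was -1.42, -1.35 and -1.64 in ICOS KO and -1.91, -1.68 and -1.92 in WT. The ratio was higher in every ICOS KO library, by 0.37 on the log2 scale or 1.29-fold (exact two-sided permutation p = 0.1, the smallest that 3 against 3 libraries allow; 3 such ratios were tested). Per kilobase Slc2a3 held 23.0% ± 1.81 of the pair in ICOS KO and 18.8% ± 1.47 in WT (SD, n = 3 each). Of the other GLUT genes tested, Slc2a6, a lysosomal transporter in the mouse, stood at 15.3 ± 4.38 CPM in ICOS KO and 23.4 ± 2.14 CPM in WT (adjusted p = 0.141 by edgeR). It passed the threshold with voom and sample quality weights (adjusted p = 0.0413) and in edgeR without ICOS KO replicate 1 (0.0379). Slc2a8 and Slc2a9 also missed the threshold, with log2 fold changes of -0.25 and -0.16. The 5 GLUT genes together stood at 99.1 ± 10.4 CPM per kb in ICOS KO and 108 ± 9.68 in WT, and the groups overlapped.

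Hexokinase 2 showed the largest fall among the 10 genes. Hk2 encodes the inducible hexokinase that binds mitochondria and is known for its rise in activated lymphocytes and tumours (chromosome 6, 82725025 to 82774454). It stood at 43.9, 41.2 and 29.5 CPM in the ICOS KO libraries and at 80.4, 86.5 and 62.6 CPM in the WT libraries. Every ICOS KO library was below every WT library, and replicate 3 was the lowest in both groups. Hk2 averaged 38.2 ± 7.61 CPM in ICOS KO and 76.5 ± 12.4 CPM in WT (SD, n = 3 each), and the log2 fold change was -1.002 ± 0.17 (SE; adjusted p = 0.0072 by edgeR, rank 146 of the 13691 genes). In edgeR fits with a library left out, Hk2 missed the threshold without WT replicate 2 (adjusted p = 0.052, log2 fold change -0.91) and passed it in the other 5. Hk1, the widely expressed hexokinase (chromosome 10, 62268855 to 62379908), stood at 183, 131 and 149 CPM in ICOS KO and at 237, 229 and 179 CPM in WT. ICOS KO replicate 1 lay just above WT replicate 3, so the groups overlapped. Its log2 fold change of -0.48 ± 0.14 missed the threshold (adjusted p = 0.0963 by edgeR; 95% interval -0.79 to -0.17). Without ICOS KO replicate 1 it was -0.62 with an adjusted p of 0.0245, and DESeq2 and voom with sample quality weights gave adjusted p of 0.0248 and 0.0256 with all libraries. Hk3, the third hexokinase gene tested, stood at 2.32 ± 1.65 CPM in ICOS KO and 5.04 ± 1.10 CPM in WT (adjusted p = 0.255 by edgeR). Summed per kilobase, Hk1, Hk2 and Hk3 reached 51.8, 38.8 and 40.3 CPM per kb in the ICOS KO libraries and 71.5, 70.6 and 55.1 CPM per kb in the WT libraries, with no overlap. Hk1 held 82.5% ± 3.74 of this sum in ICOS KO and 76.5% ± 1.003 in WT, and Hk2 held 16.0% ± 3.02 in ICOS KO and 21.1% ± 0.998 in WT. The log2 ratio of Hk2 to Hk1 was -2.06, -1.67 and -2.33 in ICOS KO and -1.56, -1.41 and -1.51 in WT. It was lower in every ICOS KO library, with a difference of -0.52 on the log2 scale (exact two-sided permutation p = 0.1, the smallest possible). ICOS KO replicate 2 lay nearest to the WT libraries in this ratio. Both genes overlap an antisense gene (Hk1os and Gm17034), which held 18 to 61 and 0 to 6 estimated counts per library, and whether the counting used strand is not given in the sources used here.

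Aldolase C rose while the abundant aldolase A did not pass the test. Aldoc encodes the aldolase best known from brain (chromosome 11, 78322968 to 78327781). It stood at 21.2, 23.3 and 31.8 CPM in ICOS KO and at 12.1, 13.6 and 15.5 CPM in WT. Every ICOS KO library was above every WT library, and replicate 3 was the highest in both groups. The means were 25.4 ± 5.64 CPM in ICOS KO and 13.7 ± 1.74 CPM in WT (SD, n = 3 each), and the log2 fold change was 0.89 ± 0.19 (SE; 1.86-fold, adjusted p = 0.0246 by edgeR). In edgeR, Aldoc missed the threshold without ICOS KO replicate 3 (adjusted p = 0.121), WT replicate 1 (0.126) or WT replicate 2 (0.12), with log2 fold changes of 0.69, 0.81 and 0.88. Aldoa, the muscle and general aldolase (chromosome 7, 126795234 to 126800751), stood at 4054, 3956 and 4087 CPM in ICOS KO and at 3574, 3504 and 3506 CPM in WT. The groups did not overlap, and their difference was small beside that of Aldoc. The log2 fold change was 0.19 ± 0.06 (1.14-fold), with an edgeR adjusted p of 0.131 and an unadjusted p of 0.0105, and none of the 17 alternatives brought the adjusted p under 0.056. The log2 ratio of Aldoc to Aldoa was -7.58, -7.41 and -7.00 in ICOS KO and -8.21, -8.01 and -7.82 in WT. It was higher in every ICOS KO library, by 0.68 or 1.61-fold (exact two-sided permutation p = 0.1, the smallest possible). Aldoc made up 0.349% ± 0.0735 of the pair per kilobase in ICOS KO and 0.216% ± 0.0293 in WT. The processed copies Aldoart1 and Aldoart2 held 208 to 310 and 43 to 73 estimated counts per library, and reads of Aldoa can be shared with them.

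**Figure D3:**
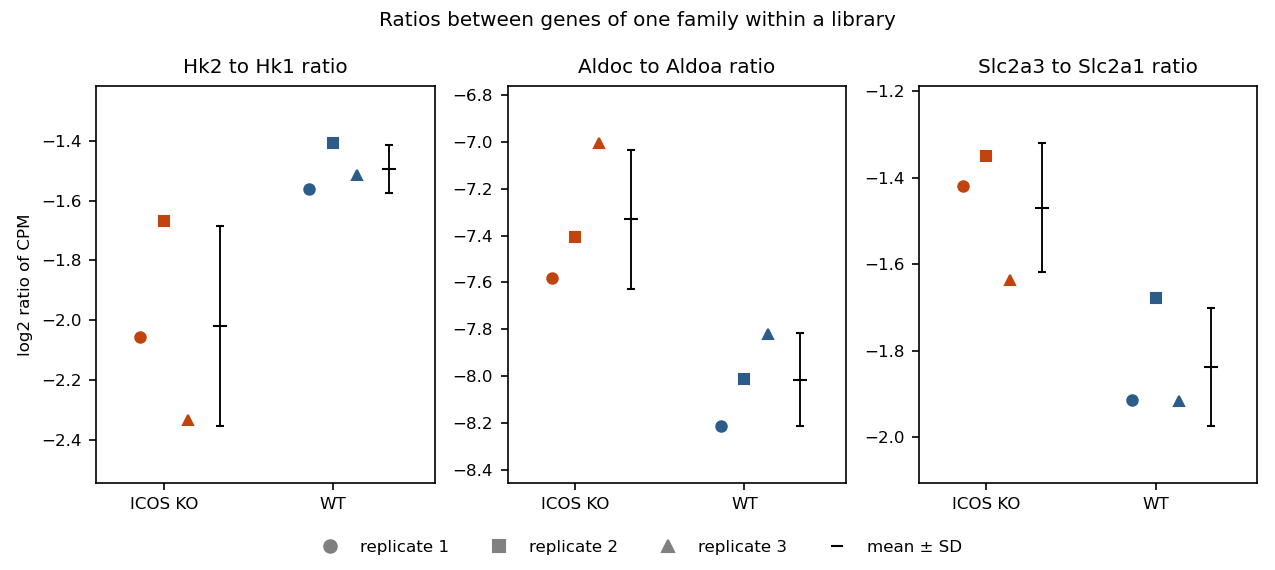
Log2 ratio of CPM between genes of one family in each library, with ICOS KO on the left and WT on the right of each panel and black bars for the mean ± SD (n = 3). The Hk2 to Hk1 ratio lies at or below -1.67 in ICOS KO and at or above -1.56 in WT, and both other ratios are higher in every ICOS KO library.

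None of Pfkp, Pkm and Ldha, the genes of the later steps, passed the test. Pfkp (chromosome 13, 6579768 to 6648777) stood at 591, 481 and 545 CPM in ICOS KO and at 605, 565 and 524 CPM in WT, overlapping groups with a log2 fold change of -0.07 ± 0.10 (adjusted p = 0.743 by edgeR; 95% interval -0.28 to 0.15; 0.12 with the length and GC trend removed). Its share of the 3 phosphofructokinase genes per kilobase was 63.4%, 65.3% and 60.6% in ICOS KO and 59.5%, 58.4% and 60.4% in WT, and Pfkl, the liver-type gene, stood at 270.04 ± 48.1 CPM in ICOS KO and 329 ± 31.6 CPM in WT (adjusted p = 0.256 by edgeR). Pfkp overlaps Pitrm1 on the other strand, which held 3018 to 5220.4 estimated counts per library. Pkm, the gene of the muscle pyruvate kinases M1 and M2 (chromosome 9, 59656368 to 59679375), stood at 4363, 3765 and 4366 CPM in ICOS KO and at 4315, 4122 and 3938 CPM in WT. The groups overlapped, with a log2 fold change of 0.01 ± 0.08 (adjusted p = 0.939 by edgeR; 95% interval -0.16 to 0.18; -0.05 with library totals alone), and gene counts do not separate the M1 and M2 splice forms. Ldha, the lactate dehydrogenase subunit that favours lactate (chromosome 7, 46841475 to 46855627), stood at 5566, 5285 and 6085 CPM in ICOS KO and at 4911, 4998 and 5271 CPM in WT. The ICOS KO libraries were all higher, the nearest pair by a small margin, and the log2 fold change of 0.16 ± 0.07 missed the threshold (adjusted p = 0.249 by edgeR). Ldhb, the subunit of heart that favours pyruvate, was not called, at 25.8 ± 2.01 CPM in ICOS KO and 34.3 ± 5.24 CPM in WT (adjusted p = 0.168 by edgeR). Ldha held 99.4% ± 0.0915 of the pair per kilobase in ICOS KO and 99.1% ± 0.14 in WT.

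Hif1a (chromosome 12, 73901375 to 73947530) was not called. It stood at 395, 343 and 329 CPM in ICOS KO and at 377, 364 and 344 CPM in WT. ICOS KO held both the highest and the lowest library. The log2 fold change was -0.02 ± 0.10 (adjusted p = 0.919 by edgeR), with a 95% interval of -0.23 to 0.19; its sign was positive, at 0.0025 with upper-quartile scaling and 0.07 with the length and GC trend removed. By the root mean square difference of mean-centred log2 CPM over the 6 libraries, the 3 genes most like Hif1a among 9816 genes with at least 5 CPM were Ywhaz, which encodes a 14-3-3 adaptor protein (difference 0.02), Relch (0.02) and Tmem209 (0.03), none of them called. The 3 genes most like Hk2 were Mycl (0.10), a relative of Myc, Atg14 (0.12), a factor of autophagy, and Gbp2 (0.12), an interferon-induced GTPase. Mycl fell, with 5.83 ± 1.47 CPM in ICOS KO and 13.1 ± 1.63 CPM in WT (adjusted p = 0.0215 by edgeR), a call lost without WT replicate 1 (0.102), WT replicate 2 (0.115) or ICOS KO replicate 3 (0.0835), while Atg14 and Gbp2 had adjusted p of 0.068 and 0.0622. Both of these passed with DESeq2, at adjusted p of 0.0169 and 0.0132. Atg14 stood at 5.49 ± 1.12 CPM in ICOS KO and 10.4 ± 1.58 CPM in WT, and Gbp2 at 5.55 ± 1.18 CPM in ICOS KO and 10.6 ± 1.39 CPM in WT. The likeness counts the gap between the genotypes, so genes picked as like Hk2 had to fall and those like Hif1a had to change little. Their fold changes and calls are therefore no separate support for those of Hk2 and Hif1a.

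Among the partners and relatives of HIF-1alpha, Epas1 rose and Arnt2 fell. Of 13 tested genes of the HIF partner and oxygen sensing list, 1 rose and 1 fell, against 1.29% and 2.01% of all genes tested, with a median log2 fold change of 0.12. Epas1, which encodes HIF-2alpha, the other main oxygen-regulated alpha subunit, rose. It stood at 64.6, 62.99 and 46.9 CPM in ICOS KO and at 31.6, 32.3 and 33.4 CPM in WT, with no overlap and a log2 fold change of 0.84 ± 0.14 (adjusted p = 0.00722 by edgeR). Per kilobase Epas1 was 12.2% ± 1.35 of the sum of Hif1a and Epas1 in ICOS KO and 7.16% ± 0.4997 in WT. Arnt2, a relative of the shared partner ARNT best known from neurons, fell. It stood at 3.88, 3.91 and 4.38 CPM in ICOS KO and at 11.7, 9.47 and 9.11 CPM in WT, a log2 fold change of -1.32 ± 0.24 (adjusted p = 0.0106 by edgeR), with the call lost without WT replicate 1 (0.079). Arnt itself was also lower in every ICOS KO library, at 25.0 ± 1.79 CPM in ICOS KO and 32.4 ± 1.79 CPM in WT, but was not called (log2 fold change -0.37 ± 0.13, adjusted p = 0.156 by edgeR). The oxygen-sensing hydroxylase genes Egln1, Egln2 and Egln3 and the ubiquitin ligase gene Vhl had log2 fold changes of 0.16, 0.12, 0.13 and 0.04, none called. Elob and Rbx1, subunits of the Vhl ubiquitin ligase complex, had log2 fold changes of 0.37 and 0.30 with adjusted p of 0.183 and 0.1996 by edgeR, and Elob was at -0.0018 with the length and GC trend removed.

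Among targets of HIF outside glycolysis, P4ha2 and Bhlhe40 fell. Of 22 tested target genes outside glycolysis, none rose and 2 fell (1.29% rose and 2.01% fell over all genes). Of the 22, 14 had positive and 8 negative fold changes, where 49.6% of all genes were positive, and the median log2 fold change was 0.06; Pdk1, Egln3 and Slc16a3 also stand in another of the lists. P4ha2, a subunit of the collagen prolyl 4-hydroxylase, fell the most. It stood at 22.0, 11.5 and 19.97 CPM in ICOS KO and at 62.6, 59.7 and 53.5 CPM in WT, a log2 fold change of -1.71 ± 0.20 (adjusted p = 0.000863 by edgeR). Bhlhe40, a transcription factor gene, stood at 61.4, 54.9 and 58.9 CPM in ICOS KO and at 130.5, 126 and 93.8 CPM in WT, with no overlap, and fell by 0.998 on the log2 scale (adjusted p = 0.00162 by edgeR). Higd1a, Ankrd37, Ero1l and Bnip3, which respond to low oxygen, had log2 fold changes of 0.35, 0.57, 0.18 and 0.22 and adjusted p of at least 0.196 by edgeR. Ankrd37 stood at only 13.0 ± 3.61 CPM in ICOS KO and 8.74 ± 1.23 CPM in WT. Other targets of the list went the other way and were not called either. Pdk1, Mxi1, P4ha1, Slc16a3, Kdm3a and Vegfa had log2 fold changes of -0.56, -0.38, -0.25, -0.22, -0.18 and -0.08. Without ICOS KO replicate 1 Higd1a and Ankrd37 passed the threshold in edgeR, at adjusted p of 0.0484 and 0.0486.

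Of the pentose phosphate branch, G6pdx fell. It encodes glucose-6-phosphate dehydrogenase, which draws the product of hexokinase into that branch and makes NADPH. It stood at 236, 179 and 194 CPM in ICOS KO and at 359, 334 and 345 CPM in WT, with no overlap. The log2 fold change was -0.77 ± 0.11 (adjusted p = 0.00279 by edgeR), and the call held in all 17 alternatives. It was 1 of 8 tested genes of the branch to be called, against 3.29% of all genes, with a median of 0.02 on the log2 scale over the list. H6pd, the enzyme of the endoplasmic reticulum with the same reaction, stood at 10.3 ± 4.97 CPM in ICOS KO and 16.5 ± 0.937 CPM in WT (adjusted p = 0.22 by edgeR, and 0.0222 without ICOS KO replicate 1). Taldo1, transaldolase, was at 0.20 on the log2 scale (adjusted p = 0.237 by edgeR), and Pgls, which opens the lactone after G6pdx, at 0.09 (0.69; -0.10 with the length and GC trend removed). Of 12 tested regulators of glycolysis, 10 had negative and 2 positive fold changes, where 49.6% of all genes were positive, and the median log2 fold change was -0.28. Myc fell and none rose, against 2.01% lower and 1.29% higher over all genes. Myc, a transcription factor that raises glycolytic genes, stood at 70.7, 61.2 and 62.4 CPM in ICOS KO and at 99.8, 85.8 and 87.2 CPM in WT, a log2 fold change of -0.49 ± 0.11 (adjusted p = 0.0375 by edgeR). Myc missed the threshold in edgeR fits without WT replicate 1 (0.21), WT replicate 2 (0.117), WT replicate 3 (0.0607), ICOS KO replicate 2 (0.111) or ICOS KO replicate 3 (0.16). Pdk1, a kinase that shuts pyruvate out of mitochondria, stood at 10.6 ± 1.99 CPM in ICOS KO and 15.6 ± 1.63 CPM in WT (adjusted p = 0.156 by edgeR), and Txnip, which lowers glucose uptake, was at -0.25 on the log2 scale (adjusted p = 0.244 by edgeR). Pfkfb3, which makes the activator of phosphofructokinase, stood at 6.38 ± 1.77 CPM in ICOS KO and 9.43 ± 2.77 CPM in WT (adjusted p = 0.3 by edgeR). None of the 18 other tested genes of glycolysis and lactate handling was called with all libraries by edgeR, DESeq2 or voom without weights (2 had an unadjusted edgeR p under 0.05), and Slc2a6 was called by voom with quality weights, with 4 positive and 14 negative fold changes and a median of -0.06. Gapdh, Tpi1, Pgk1, Pgam1, Eno1 and Gpi1, which hold steps between those of the 10 genes, had log2 fold changes of 0.16, 0.14, 0.06, -0.01, -0.04 and -0.07. Of 10 genes of pyruvate entry to mitochondria and 3 of gluconeogenesis, 0 were called by edgeR, DESeq2 or voom and 0 had an unadjusted edgeR p under 0.05. Their medians of log2 fold change were -0.05 and -0.17. Pcx, Pdha1 and Mpc1 of the first list were at -0.40, -0.13 and 0.11 on the log2 scale, and Pck2, G6pc3 and Slc37a4 of the second at -0.26, -0.17 and -0.16.

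**Figure D4:**
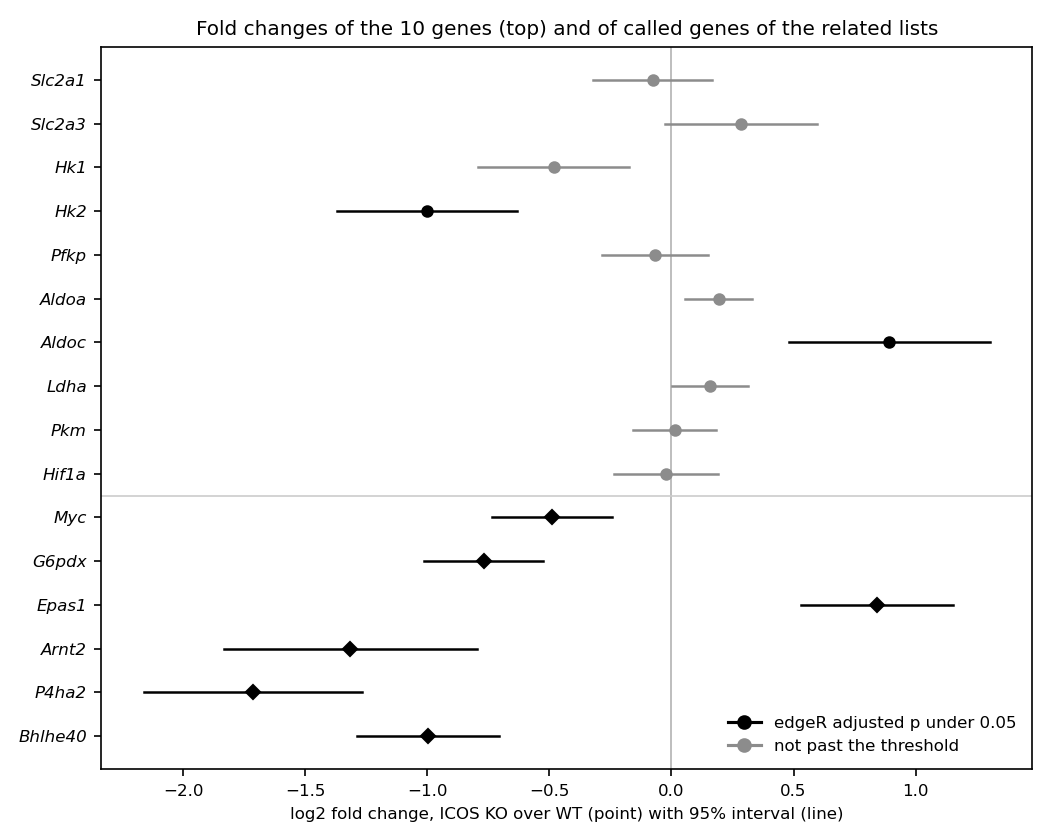
Log2 fold change of ICOS KO over WT with its 95% interval for the 10 genes (circles, top) and for the called genes of the related lists (diamonds, bottom); black marks an edgeR adjusted p under 0.05 and grey the rest. Hk2 (-1.002) and Aldoc (0.89) are the called genes at the top, and the intervals of Slc2a1, Slc2a3, Pfkp, Pkm and Hif1a include 0.

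**Figure D5:**
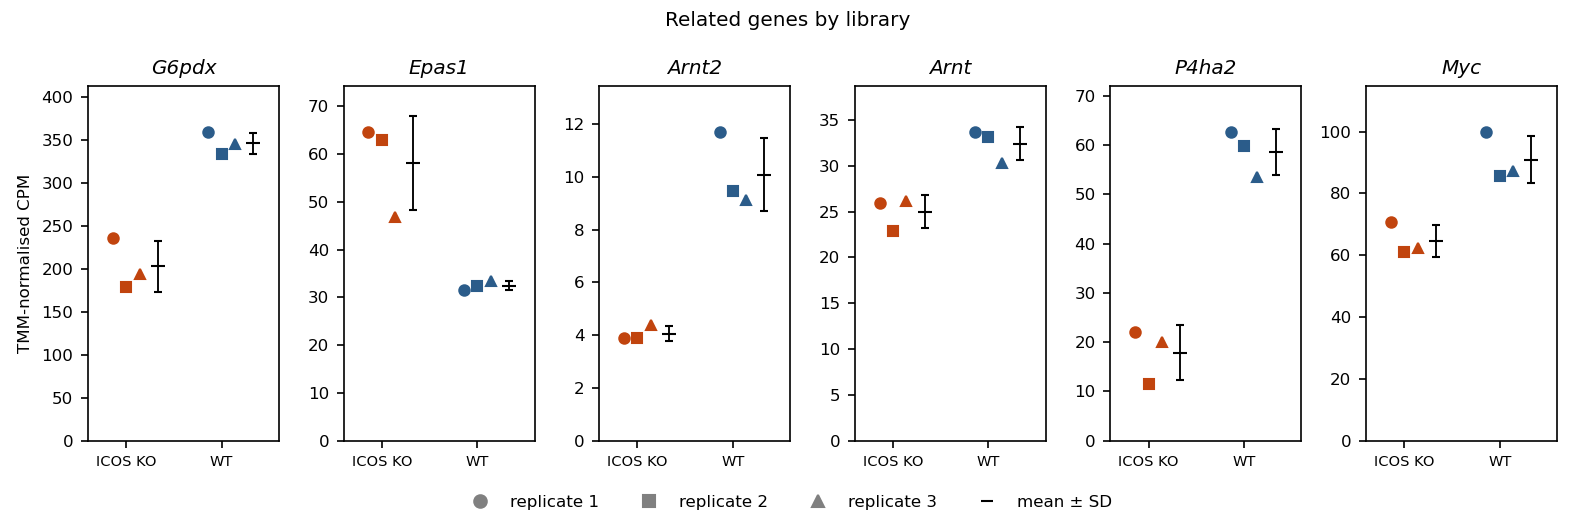
Level of 6 related genes in each library, in TMM-normalised CPM on linear axes from 0, with ICOS KO on the left and WT on the right of each panel; black bars are the mean ± SD (n = 3 each). G6pdx, Arnt2, Arnt, P4ha2 and Myc are lower in every ICOS KO library and Epas1 is higher, and Arnt was not called.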

How the data were processed

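RNA of cultured lung ILC2s was measured in 3 ICOS KO and 3 WT libraries; the design text speaks of duplicates. Per the labels' protocols, cDNA came from the SMARTer Ultra Low Input chemistry, a PCR-based method. Per the submitters' processing notes, Partek 10.0, STAR 2.7.8 and DESeq2 were used with build mm10; for annotation, counting method and strand nothing is stated in those notes or labels. Values the authors deposited are estimated counts per gene, of which 38.9% were not whole; the depth was 13738062 to 18736474 per library, where a floor of 3 reads is 0.16 to 0.218 CPM (counting error only, since reads without molecular identifiers are not independent molecules).

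Libraries were matched by the names in the labels. Estimated counts were rounded, filtered with filterByExpr (13691 genes kept), scaled with TMM and fitted in edgeR 4.0.16 (R 4.3.3; glmQLFit and glmQLFTest), ICOS KO over WT without covariates, with Benjamini-Hochberg adjustment over all genes and a threshold of 0.05. SE values and 95% intervals are those implied by the F statistic. Family ratios were tested by exact permutation over libraries. Lengths and positions come from GENCODE M21 (GRCm38). In the authors' files reads of near-identical copies can be divided between genes.

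Alternatives were other scalings (RLE, upper quartile, totals), no filter and at least 5 CPM in 3 libraries, DESeq2 1.42.0, voom of limma 3.58.1 with and without quality weights, the replicate number as a block, mitochondrial and haemoglobin genes left out, a length and GC trend removed (97.8% of tested genes had both), and each library left out. The same alternatives for named genes outside the 10 were added after seeing the data. The 10 genes and all lists were chosen with earlier results of these data known. Named genes were the 10, Icos, the called members and the 3 others of smallest p in each pathway list, and the 3 profiles most like Hif1a and Hk2. Marker lists are given as sums, with the called ILC2 and T cell markers and with Ccr2, Csf1r, Mpo, Epcam, Pecam1, Sftpc, Scgb1a1 and Krt8. Slc2a8, Slc2a9, Pfkl, Egln1 to Egln3, Vhl, Ero1l, Bnip3, Mxi1, P4ha1, Slc16a3, Kdm3a, Vegfa, Ccr2, Csf1r, Mpo, Epcam, Pecam1, Sftpc, Scgb1a1, Krt8 and the enzymes of the middle steps were named after their values were seen.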

Additional observations from a re-analysis of the deposited data

How the results depend on the processing

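Of the 10 genes, 2 were called, 2 or 3 in the 11 alternatives that kept all libraries, and 0 to 3 when a library was left out: 0 without WT replicate 2, 1 without WT replicate 1 or ICOS KO replicate 3, and 3 without ICOS KO replicate 1. Over all genes 451 were called, against 929 with DESeq2, 906 with voom and quality weights, 784 with the replicate number as a block, and 193 to 1090 when a library was left out (193 and 194 without WT replicates 1 and 2, 216 and 1090 without ICOS KO replicates 3 and 1). Same-numbered libraries were not shown to be pairs: their deviations correlated at 0.0868, 0.0784 and 0.0643, although each library correlated best with its own number. With the block Hk1 was called (adjusted p = 0.0287 by edgeR), as was Elob (0.0254), while for the family ratios the mean difference within numbers equals the difference of group means by arithmetic (-0.52, 0.68 and 0.37) and so tells nothing of the block; the exact sign-flip permutation p was 0.25, the smallest that 3 pairs allow. Leaving out a library gave -0.70 to -0.37 for Hk2 to Hk1, 0.52 to 0.81 for Aldoc to Aldoa and 0.31 to 0.45 for Slc2a3 to Slc2a1. The 13 sign changes among 170 fits of the 10 genes concerned genes that were not called. With the length and GC trend removed, log2 fold changes were 0.0952 for Slc2a1, 0.119 for Pfkp and 0.0745 for Hif1a. Pkm was at -0.0489 with library totals alone and Hif1a at 0.00254 with upper-quartile scaling. Leaving out a library gave -0.155 to 0.0211 for Slc2a1, -0.135 to 0.0138 for Pfkp, -0.0245 to 0.0861 for Pkm and -0.101 to 0.0271 for Hif1a. Among 33 other named genes 13 of 560 fits changed sign, none in a called gene. With the trend removed Mpc1 was at -0.0891, Pgls at -0.0957, Elob at -0.00183, Relch at 0.114 and Tmem209 at 0.0737. Ywhaz was at -0.0545 with library totals and -0.0426 with weighted voom. With a library left out Ywhaz ranged from -0.0687 to 0.0646, Relch from -0.128 to 0.0275, Tmem209 from -0.118 to 0.0098 and Pgls from -0.0223 to 0.167. The cause of these changes was not tested. Several named genes lie near or below 10 CPM in at least 1 genotype, among them Arnt2, Hk3, Mycl, Atg14, Gbp2, Pfkfb3, Ankrd37, Slc2a9, H6pd and Pdk1. The 3 libraries a group bound the precision of every value.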
